A study of Homo sapiens with 2 samples.

Results

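In K562 cells, 8 genomic loci of the red cell programme were searched for peaks of RNA recovered with GATA2. The loci were GATA2 itself, the beta-like globin cluster (which holds HBG1 and HBG2), the alpha-like globin cluster (which holds HBA1 and HBA2), GFI1B, TAL1, LMO2, ZFPM1 and TFRC. A peak was counted for a locus when it overlapped the locus or its nearest edge lay within 50 kb of it, and positions on hg19 were the only criterion. Of the 2692 peaks in the list, 9 (0.334%) met this rule. They fell at 3 of the 8 loci, with 5 peaks at the beta-like globins, 3 beside GFI1B and 1 in TFRC. No peak lay within 50 kb of GATA2, the alpha-like globins, TAL1, LMO2 or ZFPM1.

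The K562 line derives from a human chronic myelogenous leukaemia. The cells carried a human GATA2 transgene and had been given 1 µg/mL doxycycline for 5 hours and 100 µM 4-thiouridine, a uridine analogue that crosslinks to bound protein under long-wave light, for 24 hours, before exposure to 365 nm light at 0.3 J/cm2. The series had 1 HA immunoprecipitate and 1 input taken from the same treatment, and both carried the transgene. The peaks come from the immunoprecipitate, made by a modified seCLIP protocol in which protein-bound RNA is trimmed with RNase, pulled down and sequenced. Input values were not used here, and whether the peaks were called against the input is not given in the sources used. A peak is therefore read only as a place where recovered RNA was mapped, and whether it exceeded the input is unknown. With 1 library there is no replicate and no test, and the read depth is unknown.

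GATA2 binds DNA at GATA motifs in blood progenitors and is replaced by GATA1 as red cells mature. Both factors act with TAL1, a basic helix-loop-helix factor, LMO2, a bridging protein without DNA binding of its own, and ZFPM1 (FOG1), a cofactor that binds the zinc fingers of GATA factors. GFI1B is a transcriptional repressor of red cell and platelet development. The globin clusters encode the chains of haemoglobin, and TFRC encodes the transferrin receptor, through which developing red cells take up iron.

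The peaks have no sequence in the files used here, so the sequences shown are the 250 bases upstream of annotated start sites, from RefSeq on GRCh38, whose coordinates cannot be set against the hg19 positions of the peaks. The table matched 5 of the 10 genes (GATA2, GFI1B, TAL1, TFRC and ZFPM1, 8 windows in all). HBG1, HBG2, HBA1, HBA2 and LMO2 had no entry. The GATA motif was searched on both strands as AGATAA or AGATAG, or as TGATAA or TGATAG, and matches were allowed to overlap. Of the 8 windows, 2 held a match, against 22.3% of all 35116 windows in the table. The match is in capitals in 1 window of GFI1B, beside whose locus 3 peaks lay, and in 1 of TAL1, which had no peak. GFI1B and TAL1 each had 2 windows, and the other window of each, not shown, held no match. The window of TFRC, with a peak inside the locus, and 1 of the 2 windows of GATA2, the precipitated factor, are shown for comparison. No window of either gene held a match.

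GFI1B, chr9:132978444-132978693, plus strand: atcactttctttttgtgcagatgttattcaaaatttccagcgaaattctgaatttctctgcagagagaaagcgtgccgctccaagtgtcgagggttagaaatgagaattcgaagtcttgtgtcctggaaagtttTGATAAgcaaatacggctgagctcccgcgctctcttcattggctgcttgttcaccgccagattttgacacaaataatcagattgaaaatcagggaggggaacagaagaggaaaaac
TAL1, chr1:47232336-47232585, minus strand: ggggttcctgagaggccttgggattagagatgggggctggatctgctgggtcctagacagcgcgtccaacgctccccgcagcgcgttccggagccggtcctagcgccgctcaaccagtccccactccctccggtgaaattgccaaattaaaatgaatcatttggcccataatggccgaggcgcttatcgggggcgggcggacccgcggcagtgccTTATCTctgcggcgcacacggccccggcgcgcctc
TFRC, chr3:196082091-196082340, minus strand: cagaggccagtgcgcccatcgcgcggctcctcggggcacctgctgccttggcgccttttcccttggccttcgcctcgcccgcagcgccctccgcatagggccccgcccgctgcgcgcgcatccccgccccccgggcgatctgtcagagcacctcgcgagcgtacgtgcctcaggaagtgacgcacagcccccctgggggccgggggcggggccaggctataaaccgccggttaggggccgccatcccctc
GATA2, chr3:128493202-128493451, minus strand: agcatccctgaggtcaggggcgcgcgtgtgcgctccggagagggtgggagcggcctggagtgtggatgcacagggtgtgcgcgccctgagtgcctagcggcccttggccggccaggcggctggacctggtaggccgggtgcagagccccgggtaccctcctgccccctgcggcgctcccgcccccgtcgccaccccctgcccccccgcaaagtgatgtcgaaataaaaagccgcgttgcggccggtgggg

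The match in the GFI1B window shown reads TGATAA and begins 116 bases upstream of that window's start site. In the TAL1 window shown it is TTATCT, the reverse complement of AGATAA, and begins 35 bases upstream of that window's start site. A match describes these letters and is no measured binding site.

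To read the count of 3 loci, each chromosome was divided, from its first to its last peak, into consecutive windows. The windows were as long as the locus with its flanks, and the share that held a peak was taken. The alpha-like globins lie before the first peak of chromosome 16 and so outside the stretch divided. That share was 10.3% on chromosome 11 for the length of the beta-like globin cluster, 8.30% on chromosome 9 for GFI1B and 7.40% on chromosome 3 for TFRC. For the loci without a peak it was 6.40% for GATA2, 10.9% for the alpha-like globins, 10.3% for TAL1, 9.28% for LMO2 and 14.6% for ZFPM1. The 8 shares sum to 0.775 loci, beside the 3 observed. The 3 include GFI1B, which had peaks only in its flanks. The loci were chosen with earlier results of these data known, so this comparison is a description and no test. The windows take in untranscribed sequence, whereas the 8 loci are gene loci, so the shares do not give what other gene loci would show. For a single locus without a peak, absence was the commoner outcome in windows of that length.

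**Figure D1:**
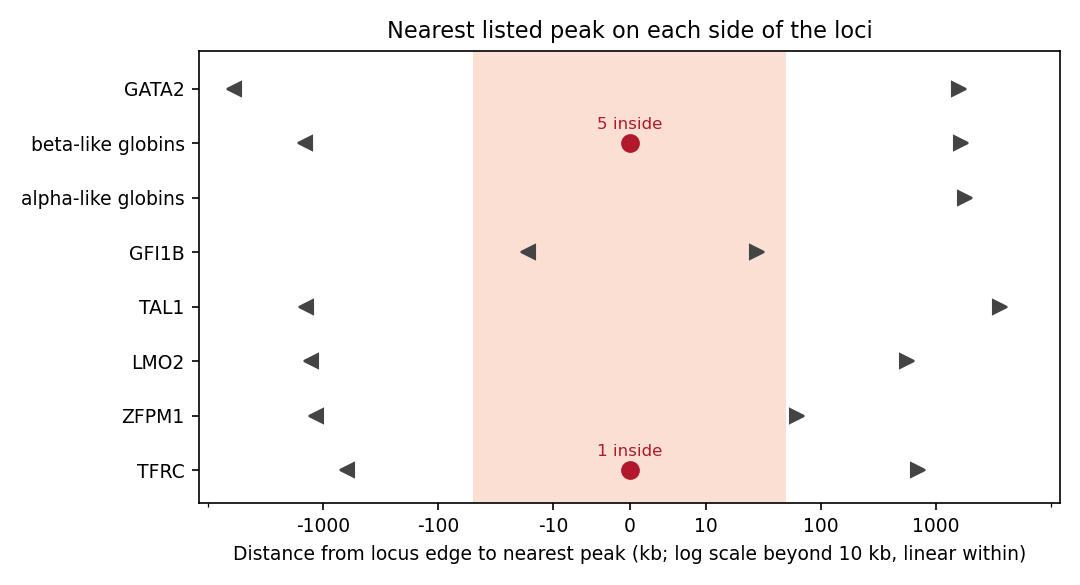
The plot gives, for each of the 8 loci, the distance in kb from the locus to the nearest peak on the low-coordinate side (left-pointing triangles) and the high-coordinate side (right-pointing triangles), on an axis that is linear within 10 kb and logarithmic beyond. Red points count peaks inside the locus and the shaded band marks 50 kb, and only the beta-like globins, GFI1B and TFRC have a symbol in the band. The alpha-like globins have no low-side triangle because no listed peak precedes them on chromosome 16.

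The beta-like globin cluster, chr11:5246696-5291000, held the most peaks. On this cluster the genes follow one another, from the low to the high coordinate, as HBB, HBD, the pseudogene HBBP1, the non-coding RNA gene BGLT3, HBG1, HBG2 and HBE1, in the order of the RefSeq table on GRCh38. HBB is the adult beta chain, HBD a minor adult chain, HBG1 and HBG2 the fetal gamma chains and HBE1 the embryonic epsilon chain. All 5 peaks started at 50.8% or more of the way along the cluster, and together they covered 9.90% of it. Peaks covered 0.107% of chromosome 11 between its first and last peak, a stretch that takes in untranscribed sequence and these same peaks. Among the other loci, TFRC was covered over 1.31% and the rest held no peak inside.

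The first peak, chr11:5269214-5269727, was 514 bp long and scored 163.44. The second, chr11:5270131-5271170, was 1040 bp long and scored 189.41, the highest in the cluster. These formed a close pair, with 403 bp between them. The third, chr11:5273646-5274644, was 999 bp long and scored 87.43, the lowest in the cluster. The fourth, chr11:5275018-5276109, was 1092 bp long and scored 174.57. These again formed a close pair, with 373 bp between them, and 2475 bp separated the pairs. The fifth, chr11:5290262-5291475, was 1214 bp long and scored 96.21. It stood 14152 bp beyond the fourth and ran past the high end of the interval taken for the cluster by 475 bp. The gene order places HBE1 at that end.

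The pairs resembled each other in layout. From the first to the third peak the ends were 4917 bp apart and the starts 4432 bp, and from the second to the fourth the ends were 4939 bp apart and the starts 4887 bp. The high-coordinate members of the pairs were thus close in length, the fourth peak being 52 bp longer than the second, while the third was 485 bp longer than the first. The first peak scored 76.01 more than the third, and the second scored 14.84 more than the fourth. HBG1 and HBG2 are known as tandem duplicates of nearly identical sequence, and the rule by which reads matching both copies were placed is not given in the sources used here. Whether the pairs of peaks lie on these copies, and whether they share reads, was not tested. Which gene, and whether exon or intron, each peak covers was not read here, because the annotation at hand is on GRCh38, and the list has no strand.

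The 4 peaks of the pairs spanned 5269214 to 5276109, which is 50.8% to 66.4% of the way along the cluster. No peak lay in the first 22518 bp, the end at which the gene order places HBB and HBD. Beyond the cluster the next peaks were 1.43 Mb away on the low side and 1.67 Mb on the high side.

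**Figure D2:**
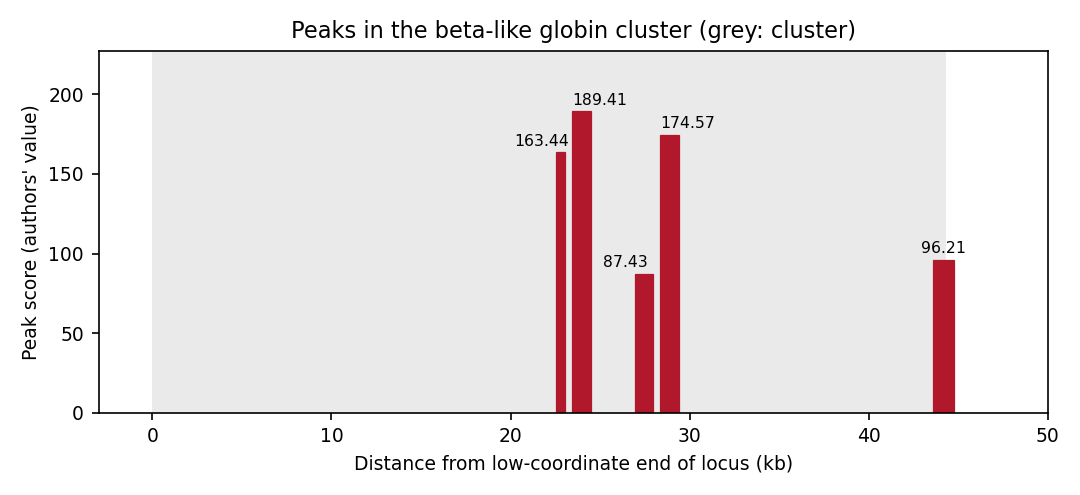
Each bar is a peak in the beta-like globin cluster, drawn to scale along the horizontal axis as the distance in kb from the low-coordinate end of the cluster, with the authors' score as its height and the cluster shaded grey. Close pairs stand near 23 and 28 kb with scores of 163.44 and 189.41 and of 87.43 and 174.57. The lone peak of 96.21 crosses the high end of the interval taken for the cluster.

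Within the whole list the scores of these 5 peaks were high and their lengths ordinary. Scores of all peaks had a median of 65.91, and the cluster's peaks had a median of 163.4. The second, the fourth and the first ranked 84, 101 and 116 by score among 2692, and the fifth and the third ranked 493 and 642. In the same order they ranked 6, 8, 10, 19 and 25 among the 113 peaks of chromosome 11. The median length was 1040 bp, against 851 bp for all peaks. The score is a value per peak of unstated scale, so these ranks do not measure how much globin RNA was bound.

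The alpha-like globin cluster, chr16:202854-227520, encodes the other chain of haemoglobin, with HBA1 and HBA2 as duplicated adult genes. It had no peak, and the nearest lay 1.78 Mb away at chr16:2011006-2015891, with a score of 54.01 and a length of 4886 bp. That was the first listed peak of chromosome 16, so the end of the chromosome that holds the cluster was empty in the list. The treatment of reads shared between HBA1 and HBA2 is as unknown as for the gamma genes, and its part in the absence of a peak was not tested.

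At GFI1B, chr9:135820932-135867083, no peak lay inside the locus. On the low side, where the gene order places TSC1, a tumour suppressor gene, chr9:135804006-135804344 lay 16588 bp away with a score of 59.64 and a length of 339 bp. A further peak on that side, chr9:135798487-135798884, lay 22048 bp away with a score of 60.34 and a length of 398 bp. Both were short and weakly scored. By score they ranked 1734 and 1681 of 2692, and only 1.75% and 12.0% of all peaks were shorter.

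The peak on the high side was longer and scored far higher. It ran over chr9:135894811-135896776, 27728 bp beyond GFI1B, with a score of 623.95 and a length of 1966 bp. This score ranked 2 in the whole list and 1 among the 99 peaks of chromosome 9, and 85.5% of all peaks were shorter. Beyond GFI1B the gene order runs through MIR548AW, RPL39P24, RNU7-21P, EEF1A1P5, SNORD141A and LOC105376306 to GTF3C5. EEF1A1P5 is a pseudogene of EEF1A1, the translation elongation factor gene, and GTF3C5 encodes a subunit of a factor for RNA polymerase III. Which of these genes the peak covers was not determined, and its nearness to GFI1B does not make it a peak of GFI1B. How reads matching both EEF1A1P5 and EEF1A1 were placed is as unknown as for the gamma genes, and whether this bears on the peak was not tested.

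TFRC, chr3:195776155-195809032, had 1 peak. It ran over chr3:195801796-195802226, was 431 bp long and scored 57.52. TFRC is read from the high to the low coordinate, and the peak lay 6806 bp below the high end and 25641 bp above the low end. It was thus in the part of the locus nearer to the start of the gene. The iron-responsive elements for which TFRC mRNA is known lie at its other end, in the 3' untranslated region. By score the peak ranked 1921 of 2692, with 28.6% of peaks scoring lower, and 17.3% of peaks were shorter. The nearest other peaks were 622 kb away on the low side and 703 kb on the high side.

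**Figure D3:**
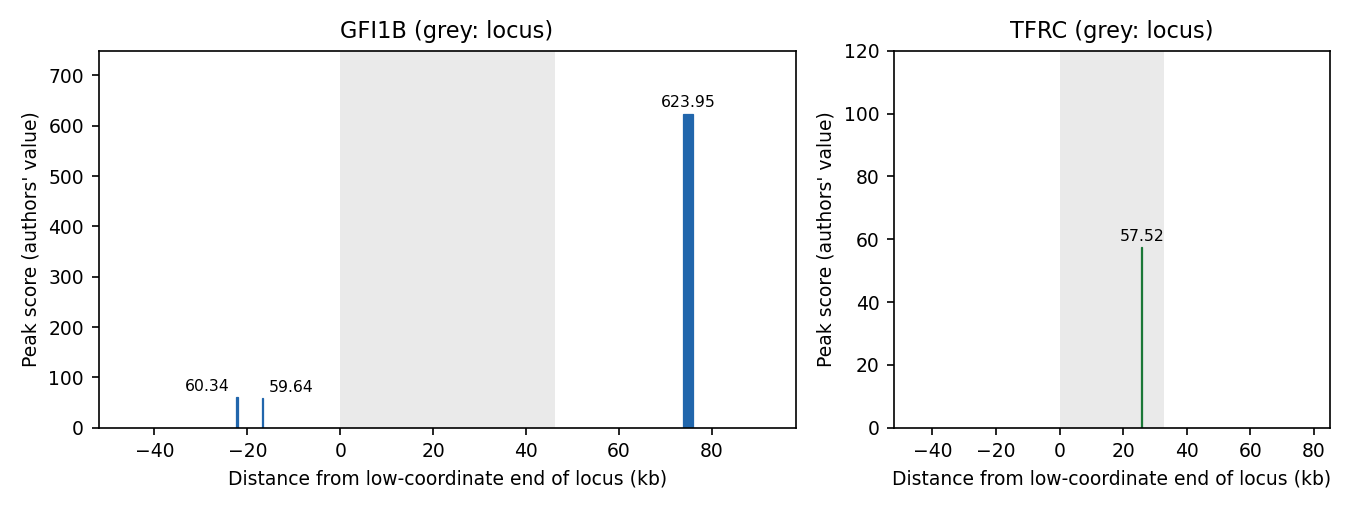
Bars are the peaks within 50 kb of GFI1B (left) and TFRC (right), to scale along the distance in kb from the low-coordinate end of each locus, with the authors' score as the height and the locus shaded grey. The vertical scales differ, and the GFI1B locus itself is empty between the low-side peaks of 60.34 and 59.64 and the high-side peak of 623.95, while the single TFRC peak of 57.52 is inside the locus.

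The 9 peaks scored between 57.52 and 623.95, with a median of 96.21. Their lengths lay between 339 and 1966 bp, with a median of 999 bp. A score above 100 was reached by 4 of the 9 (44.4%) and by 16.0% of all peaks. These 4 were 3 globin peaks and the peak beyond GFI1B. The 9 peaks come from only 3 places and share their library, so they are not 9 independent observations.

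**Figure D4:**
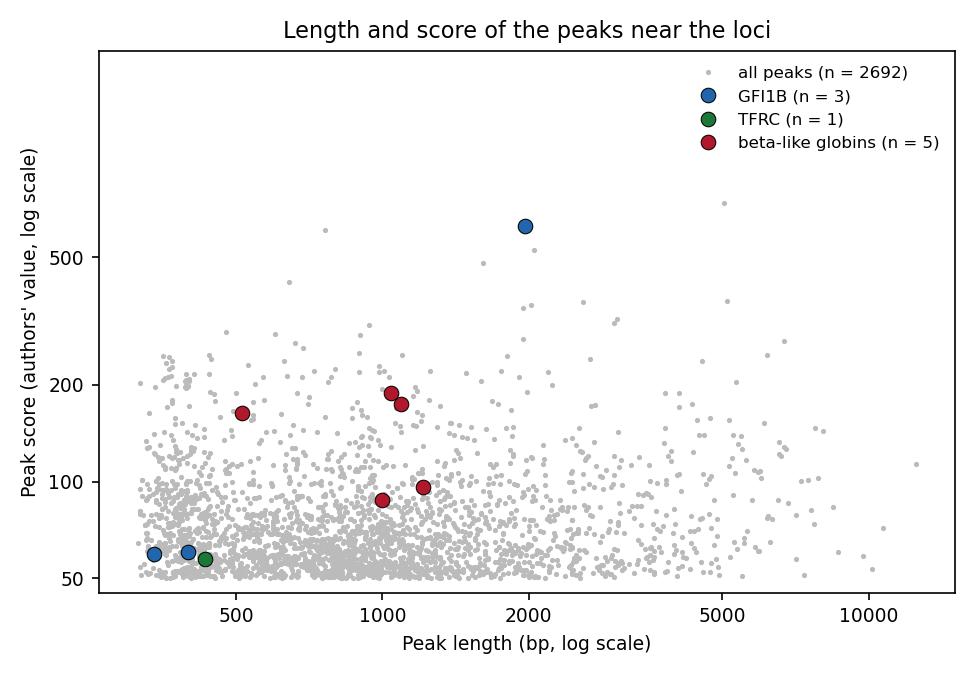
Each point is a peak, with its length in bp and the authors' score on logarithmic axes, in grey for all 2692 peaks and in colour for the 9 peaks near the loci. Globin peaks lie between 87.43 and 189.41, the TFRC peak and the low-side GFI1B peaks lie near the lower edge, and the high-side GFI1B peak of 623.95 is near the top.

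GATA2 and its partners TAL1, LMO2 and ZFPM1 had no peak within 50 kb. At GATA2, chr3:128198265-128212030, the nearest peak was chr3:129817416-129818042, 1.61 Mb away, with a score of 67.71 and a length of 627 bp. On the low side the nearest was 5.98 Mb away. GATA2 thus sat in an empty stretch of 7.60 Mb. Of the 2668 stretches between neighbouring peaks, 23 were at least as long, its own included, and of the 119 on chromosome 3, 4 were. The median stretch was 338 kb. These are counts of stretches. A long stretch takes in more positions than a short one, so the share of positions in such stretches is larger, and it was not taken. No peak marked the GATA2 gene on the genome. The cells carried a human GATA2 transgene, and whether RNA of the transgene would map to that gene was not tested.

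At TAL1, chr1:47681962-47698007, the nearest peak was chr1:46269327-46269972, 1.41 Mb away, with a score of 100.55. The stretch around TAL1 without a peak measured 5.08 Mb, and 4.09% of all stretches were at least as long. This is again a share of stretches, and the larger share of positions was not taken. LMO2, chr11:33880122-33913836, had its nearest peak 560 kb away at chr11:34473558-34474188, with a score of 61.2, in a stretch of 1.87 Mb. ZFPM1, chr16:88519725-88601574, came closest to having a peak. Its nearest, chr16:88664058-88666999, lay 62484 bp beyond the high end, just outside the limit, with a score of 51.34 and a length of 2942 bp. On the inner side of the limit the farthest counted peak was the one 27728 bp beyond GFI1B. The ZFPM1 neighbour ranked 2536 of 2692 by score.

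The other red cell genes listed for this report, among them GATA1, KLF1, NFE2, EPOR and ALAS2, were not placed, since their hg19 positions are not in the tables used here.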

How the data were processed

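The samples were grouped by their titles into 1 HA immunoprecipitate and 1 input, and only the peak list of the immunoprecipitate was used. The deposited list gives start and end in bp and, per peak, a score whose scale is not stated and whose lowest value is 50. Peak names start with MACS, a peak caller, per the file. Its settings, threshold and control are not given in the sources used. The build hg19 and the tools Bowtie2, cutadapt, bedtools, SAMtools and UMI-tools (1.0.0) are named in the submitters' processing notes, without role or order.

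The loci were taken on hg19 as fixed intervals, and distances run from the nearest edges, with 0 for overlap. Starts were rewritten to count from 1. All 8 loci are named, each with every peak within 50 kb and its nearest peak. Windows as long as each locus with its flanks were tiled from the first to the last peak of its chromosome. The loci, lists and measures were chosen with earlier results of these data known. Distances were tested on planted peaks. Gene order and upstream sequences came from RefSeq on GRCh38, and no coordinate was converted. The planned feature assignment and the list of other erythroid genes need an annotation of hg19 and were not run. The work used Python 3.11.15 with matplotlib 3.10.9, scipy 1.17.1, pandas 2.3.3 and numpy 2.4.6.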

Additional observations from a re-analysis of the deposited data

How the results depend on the processing

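The number of loci with a peak was 2 with no flank and at 10 kb, 3 at 25 kb, 4 at 100 and 250 kb (ZFPM1 being added) and 5 at 1 Mb (LMO2 being added). The peaks numbered 6, 6, 8, 10, 10 and 20 at these flanks. A wider flank takes in more sequence, so these counts cannot fall as it widens. The share of same-length windows with a peak was taken only for the 50 kb flank, so the other counts have no background beside them. With the 1346 higher-scoring peaks alone, 2 loci and 6 peaks were counted. TFRC and the low-side peaks of GFI1B were lost, and the median distance from a locus to its nearest peak rose from 311 kb to 1510 kb, since fewer peaks were used. Peak midpoints gave 3 loci, 9 peaks and a median of 312 kb, and merging peaks within 1000 bp gave 7 peaks. The median share of windows with a peak was 9.79%, and 9.21% to 9.90% with shifted tiling, tiling from position 1 or all chromosomes. The median score rank of the 9 peaks was at 18.3% of the list and at 16.8% of their chromosomes' peaks. All values rest on 1 library of unknown depth. No paired analysis was possible because there is only 1 library per group.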

Other observations

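The 4 paired peaks of the beta-like globin cluster span 6896 bp. Among 2620 runs of 4 consecutive peaks in the list, this run was the second shortest. The shortest lay on chromosome 16 from 30287099 to 30293522, and the median run spanned 2.20 Mb. The median score of the globin run was 169. The comparison was chosen after the positions were seen and is a description of this list.

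Within 1 Mb the number of peaks ranged from 0 to 8. GFI1B had 8 peaks with scores from 52.1 to 623.95, TFRC had 5 from 56.69 to 123, and the beta-like globins had only the 5 peaks of the cluster. LMO2 and ZFPM1 had 1 each, with scores of 61.2 and 51.34. GATA2, the alpha-like globins and TAL1 had 0. Between first and last peak, the chromosomes of the loci held from 0.637 peaks per Mb (chromosome 3) to 1.64 (chromosome 16). The share of windows of this length that hold a peak was not taken, so these counts are a description.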
